A study of Mus musculus with 87 samples.

Results

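The genes described here are 48 members of the Wnt pathway that act at or near the cell surface, together with nuclear and feedback readouts of the signal. They comprise 19 Wnt ligands, 10 frizzled receptors, the co-receptors Lrp5 and Lrp6, 4 R-spondins, 3 dickkopf proteins, 5 secreted frizzled-related proteins, the R-spondin receptors Lgr4 and Lgr5, the nuclear factors Lef1 and Tcf7, and the feedback target Axin2. They were chosen by gene symbol and role, and all 48 matched 1 Ensembl gene each among the 43346 in the files.

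RNA-seq was performed on 64 libraries of whole tissues from E11.5 embryos of FVB mice, in 7 lines (B2 to B8) that each lack 1 boundary between topologically associating domains (TADs). The boundaries were removed by CRISPR/Cas9 in the germline, and each line was bred from 1 founder. Homozygous embryos were compared with wild-type littermates: 6 against 6 in the lung and 4 against 4 in the heart of B2, and 2 against 2 in the face and heart of B3 and of B5, in the gut and midbrain of B4, in the face of B6 and of B7, and in the forebrain and neural tube of B8. Hearts of B6 and B7 are represented by 2 homozygous libraries each, without wild-type hearts of their own among the libraries analysed here. The labels name no transgene and no treatment. Tissues were dissected whole, so fewer cells of a type and less RNA per cell cannot be told apart. The labels give each library a code of its own, such as A21. They do not say which libraries came from separate embryos, so p-values measure only the spread between these libraries.

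Wnt proteins are lipid-modified secreted ligands that bind frizzled receptors. In the canonical branch, a Wnt bridges a frizzled to Lrp5 or Lrp6, the complex that degrades beta-catenin is inhibited, and beta-catenin enters the nucleus to work with the Lef1/Tcf family. R-spondins, through Lgr receptors, keep frizzleds on the cell surface. Dickkopf proteins block the co-receptors, and secreted frizzled-related proteins bind ligands outside the cell. At this stage the pathway is known for patterning the dorsal neural tube and the midbrain-hindbrain boundary, for outgrowth of the facial prominences and for lung bud specification, and Wnt11 acts largely through non-canonical signalling in the heart.

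Libraries held 8391553 to 31793420 counts, and those outside the lung held 17075542 to 26482990. The 48 genes took 0.0195% to 0.26% of a library's counts. Between 24 and 38 of them reached 10 counts in a lung, between 35 and 45 in a heart, and between 40 and 46 elsewhere, so low values in the lung are the least precise. The shallowest lung (wild-type, E5420-09) had 90.1% of its counts in 10 genes, and 1.54% mitochondrial counts, and the wild-type lung E5420-07 had 0.36%. The remaining 10 lungs had 11.3% to 14.05% mitochondrial counts, where libraries of other tissues had 0.39% to 3.65%. The tissues carried their own markers: summed levels of 8 cardiomyocyte markers were 7030 to 25400 CPM in hearts and at most 176 elsewhere, 10 facial mesenchyme markers were 1020 to 1490 in faces, and 5 forebrain markers 819 to 916 in forebrains. Guts carried liver markers (4790 to 7750 CPM), and neural tubes carried skeletal muscle markers (319 to 418 CPM) that were at 1.04 to 3.36 in forebrains. CPM here is a count scaled to library size with TMM factors estimated over all 64 libraries.

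Since nuclear Lef1/Tcf proteins recognise a short motif, the promoters of the members were read for CTTTGAA and CTTTGAT on both strands (on the other strand TTCAAAG and ATCAAAG) in the 250 bases before the transcription start given by RefSeq. Of the members, 32 matched a RefSeq promoter, with 39 promoters in all. The motif was found in 3 of the 39 (7.69%), and in 2457 of all 32851 mouse promoters of that length (7.48%), so its share among the members was near that of promoters at large. The promoters with a match are those of Wnt5b, Wnt11 and Dkk1. They are shown because they are the only member promoters holding a match, with the motif in capitals, 5′ to 3′ on the strand of the gene. The Wnt5b promoter lies at chr6:119449387-119449636 (GRCm38.p6, minus strand) with the motif starting 71 bases before the start site, the Wnt11 promoter at chr7:98834862-98835111 (plus strand) with the motif 51 bases before it. For Dkk1, 30 bases around the motif at chr19:30549595-30549624 (minus strand) are given, with the motif starting 117 bases before the RefSeq start site. GENCODE M21 places the gene at chr19:30545863-30549665, so these bases lie inside it by that annotation. The Wnt5b promoter likewise lies within the GENCODE span of its gene (chr6:119432531-119544347). A match is a description of the letters only.
Wnt5b promoter: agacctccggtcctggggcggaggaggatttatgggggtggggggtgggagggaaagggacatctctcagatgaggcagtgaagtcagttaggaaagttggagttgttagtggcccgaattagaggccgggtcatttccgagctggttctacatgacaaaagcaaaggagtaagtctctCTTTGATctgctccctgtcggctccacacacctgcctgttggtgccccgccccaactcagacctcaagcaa
Wnt11 promoter: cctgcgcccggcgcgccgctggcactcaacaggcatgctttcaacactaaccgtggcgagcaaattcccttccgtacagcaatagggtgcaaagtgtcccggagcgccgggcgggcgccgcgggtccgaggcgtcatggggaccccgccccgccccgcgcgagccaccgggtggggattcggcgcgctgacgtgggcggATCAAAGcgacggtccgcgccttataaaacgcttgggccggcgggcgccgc
Dkk1 promoter, motif region: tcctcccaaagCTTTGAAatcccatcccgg

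The level of each member across the 7 tissues was described first, in wild-type libraries (8 faces, 8 hearts, 6 lungs, and 2 each of gut, midbrain, forebrain and neural tube). Tissue specificity was summarised by tau, an index over the 7 tissue medians of log2(CPM + 1) that is 0 for an even gene and 1 for a gene of a single tissue. On this scale an equal fold difference gives a lower tau in a gene of higher level. The part of level in the values of tau below was not tested. The median tau was 0.36 over the 47 members that reached 1 CPM in some tissue, against 0.17 over all 15888 genes that did. By role, the ligands were the most uneven (median 0.53, from 0.1 to 0.87), followed by secreted frizzled-related proteins (0.46), dickkopf proteins (0.43) and R-spondins (0.39). Frizzleds had a median of 0.23 and the co-receptors 0.1. The highest level of a member lay in the forebrain for 13 genes, in the face for 10, in the lung for 8, in the midbrain for 8, in the neural tube for 4, in the heart for 3, in the gut for 1, and Wnt8a stayed below 1 CPM in every tissue median. Tissue and line are not separable over all 7 tissues, so these levels were given no test.

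**Figure D1:**
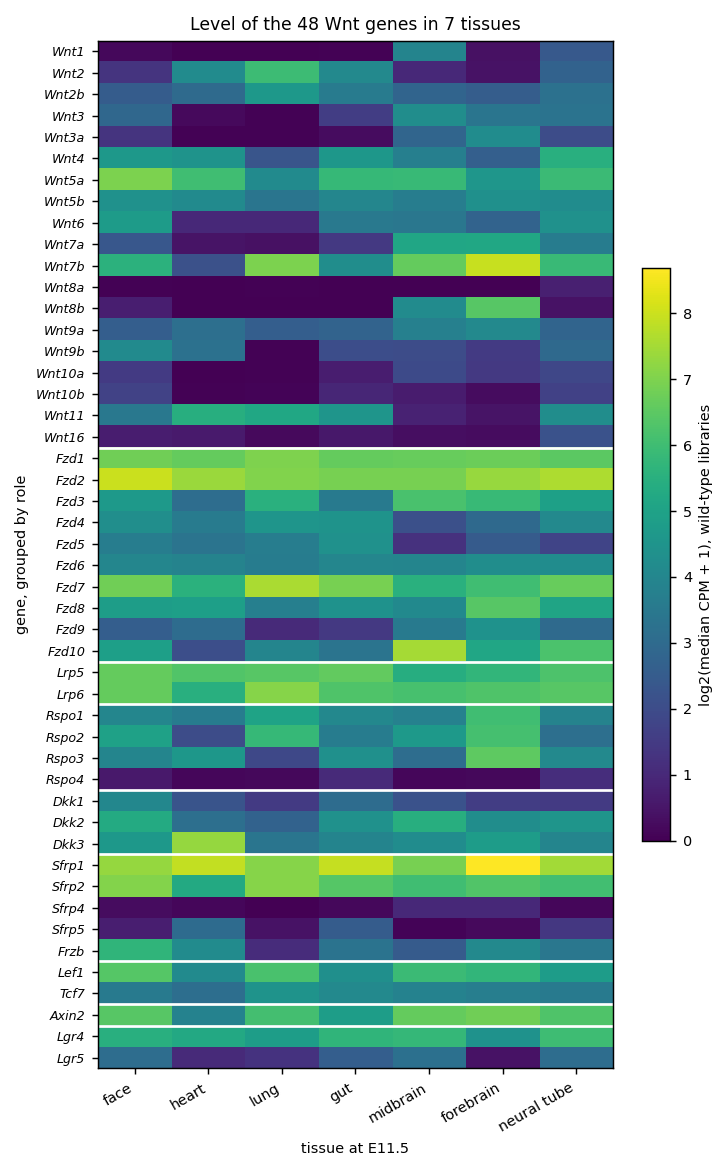
Heat map of the median wild-type level of each of the 48 genes (rows, grouped by role) in the 7 tissues (columns), on the log2(CPM + 1) scale. Ligand rows change across columns more than frizzled and co-receptor rows do, as the median tau of 0.53, 0.23 and 0.1 states.

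Among the ligands that reached 1 CPM, Wnt1 and Wnt8b of the dorsal brain had the narrowest distributions. Wnt1, the ligand of the midbrain-hindbrain boundary, had a median of 14.2 CPM in the midbrain (11.6 and 16.8) and 4.43 in the neural tube, and at most 0.307 in any other tissue median. Wnt8b, a ligand of the dorsal forebrain, had a median of 85.8 CPM in the forebrain (66.0 and 106) and 17.2 in the midbrain, with at most 0.664 in any other tissue median. Wnt3a, which is needed for the hippocampal primordium and tail bud, was highest in the forebrain at 17.8 CPM, before the midbrain at 6.19, and was near 0 in heart and lung (0.0238 and 0.0253). These 3 genes had a tau of 0.87, 0.86 and 0.74. Wnt16, a ligand highest in the neural tube, had 0.79, and Wnt8a, under 1 CPM in every tissue median, had 0.97. Wnt3 was highest in the midbrain (18.1 CPM) and lowest in the lung (0.0243). Wnt7a was at 34.9 CPM in the forebrain and 34.3 in the midbrain, whose libraries overlapped, and at 0.325 in the lung. Wnt7b, a ligand of both brain and lung epithelium, was at 245 CPM in the forebrain and 124 in the lung, and its hearts spread from 0.629 to 51.7 CPM around a median of 3.42. Wnt9a was highest in the forebrain (15.8 CPM) and lowest in the lung (5.08), and Wnt10a was highest in the midbrain at 2.89.

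The mesenchymal and thoracic ligands were ordered differently. Wnt2, a lung mesenchyme ligand, was at 60.8 CPM in the lung (53.0 to 116), 17.1 in the heart, 16.1 in the gut and 0.326 in the forebrain. Its partner Wnt2b was also highest in the lung (23.6 CPM), with 11.3 in the gut and 4.78 in the face. Wnt11 had its highest median in the heart (42.3 CPM, from 31.5 to 60.0) and its lowest in the forebrain (0.365), with heart and lung overlapping. Wnt5a, the main non-canonical ligand of growing mesenchyme, was at 124 CPM in the face (105 to 168) and 16.9 in the lung. Wnt5b was the most even ligand (tau 0.1), between 9.39 CPM in the lung and 19.9 in the face. Facial levels led for Wnt6 (25.9 CPM against 0.982 in the heart), Wnt9b (16.7 against 0.047 in the lung) and Wnt10b (2.25 against 0.0238 in the heart), which are ligands of surface ectoderm and other epithelia. Wnt4 was highest in the neural tube (43.5 CPM) and lowest in the lung (3.84). Wnt16 (3.54 CPM) and Wnt8a (0.704 CPM) were also highest there, both at low levels.

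Receptors varied less. For Fzd1 (tissue medians of 88.6 to 127 CPM) and Fzd6 (11.4 to 18.1), the libraries of every neighbouring pair of tissues in their order overlapped. Fzd2 ran from 117 CPM in gut and midbrain to 254 in the face. Fzd7 was highest in the lung (191 CPM) and lowest in the midbrain (44.5), and Fzd4, the vascular Norrin and Wnt receptor, ran from 21.9 in the lung to 3.34 in the midbrain. Fzd5 was highest in the gut (19.8 CPM) and lowest in the midbrain (1.35), whereas Fzd3, which guides axons and closes the neural tube, was highest in the midbrain (71.5) and lowest in the heart (7.6). Fzd10 was at 182 CPM in the midbrain and 3.21 in the heart. Fzd8 (84.6 CPM) and Fzd9 (20.4 CPM) were highest in the forebrain, and both lowest in the lung (12.3 and 1.04). Of the co-receptors, Lrp5 ranged from 41.3 CPM in the midbrain to 98.7 in the face and Lrp6 from 43.7 in the heart to 137 in the lung.

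Rspo1, Rspo2 and Rspo3 had their highest medians in the forebrain, and Rspo4 did not. Compared per length, as summed TPM of the 4 genes, the forebrain stood at 187 (146 and 227), and the other tissues had medians of 21 in the heart, 29.1 in the lung, 34.2 in the neural tube, 38.3 in the midbrain, 40.1 in the gut and 41.9 in the face. TPM carries no TMM factor, and on the CPM scale of each gene the lung stood second to the forebrain for Rspo1 (32 CPM) and Rspo2 (55.6 CPM), so the order of the tissues below the forebrain depends on the scale. The forebrain medians were 63.8 CPM for Rspo1, 68.8 for Rspo2 and 91.7 for Rspo3. Their lowest medians lay in different tissues: the heart for Rspo1 (11.5) and Rspo2 (3.02), and the lung for Rspo3 (2.66). Wild-type lungs overlapped forebrains for Rspo1 (28.6 to 68.0 against 48.6 and 79.1 CPM) and Rspo2 (37.8 to 62.6 against 52.9 and 84.7). Rspo3 had no such overlap. The tissue medians of Rspo4 stayed between 0.103 CPM in the midbrain and 1.18 in the neural tube. The R-spondin receptor Lgr4 was lowest in the forebrain (20.4 CPM) and highest in the neural tube (62.0). Lgr5 was likewise lowest in the forebrain at 0.349 and highest in the midbrain at 8.3, where every neighbouring pair of tissues in its order overlapped.

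Secreted inhibitors differed by tissue too. Dkk3, a divergent family member with little effect on the co-receptors, had a heart median of 158 CPM (98.3 to 167) and at most 26.6 in any other tissue median. Dkk1 was highest in the face (15.1 CPM) and lowest in the neural tube (1.77), and Dkk2 was highest in the midbrain (42.3) and the face (38.7), which overlapped, and lowest in the lung (5.58). Sfrp1 ran from 117 CPM in the midbrain to 409 in the forebrain. Sfrp2 was highest in the lung (136) and face (134) and lowest in the heart (37.8). Frzb, also a frizzled-related protein, was at 50.6 CPM in the face and 1.15 in the lung, and Sfrp5 led in the heart (7.19 CPM) with 0.061 in the midbrain. Sfrp4 had no tissue median above 1.01 CPM. Per length, the member with the highest median TPM was Sfrp2 in the face (127) and the lung (50.2), Sfrp1 in the heart (55.0), the gut (96.2) and the forebrain (171), Fzd10 in the midbrain (115) and Fzd2 in the neural tube (102).

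The members that read out the canonical branch had their lowest medians in the heart. For each of them, wild-type hearts overlapped the tissue with the next lowest median. Axin2, induced by beta-catenin in most tissues, was at 13.4 CPM in the heart (7.91 to 28.1), 27.2 in the gut and between 67.2 in the lung and 111 in the forebrain elsewhere. Lef1 was at 17 CPM in the heart (12.3 to 37.1), 18.9 in the gut and up to 83.8 in the face. Tcf7 was lowest in the heart at 7.86 CPM (6.55 to 17.8) and highest in the lung at 20.8.

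**Figure D2:**
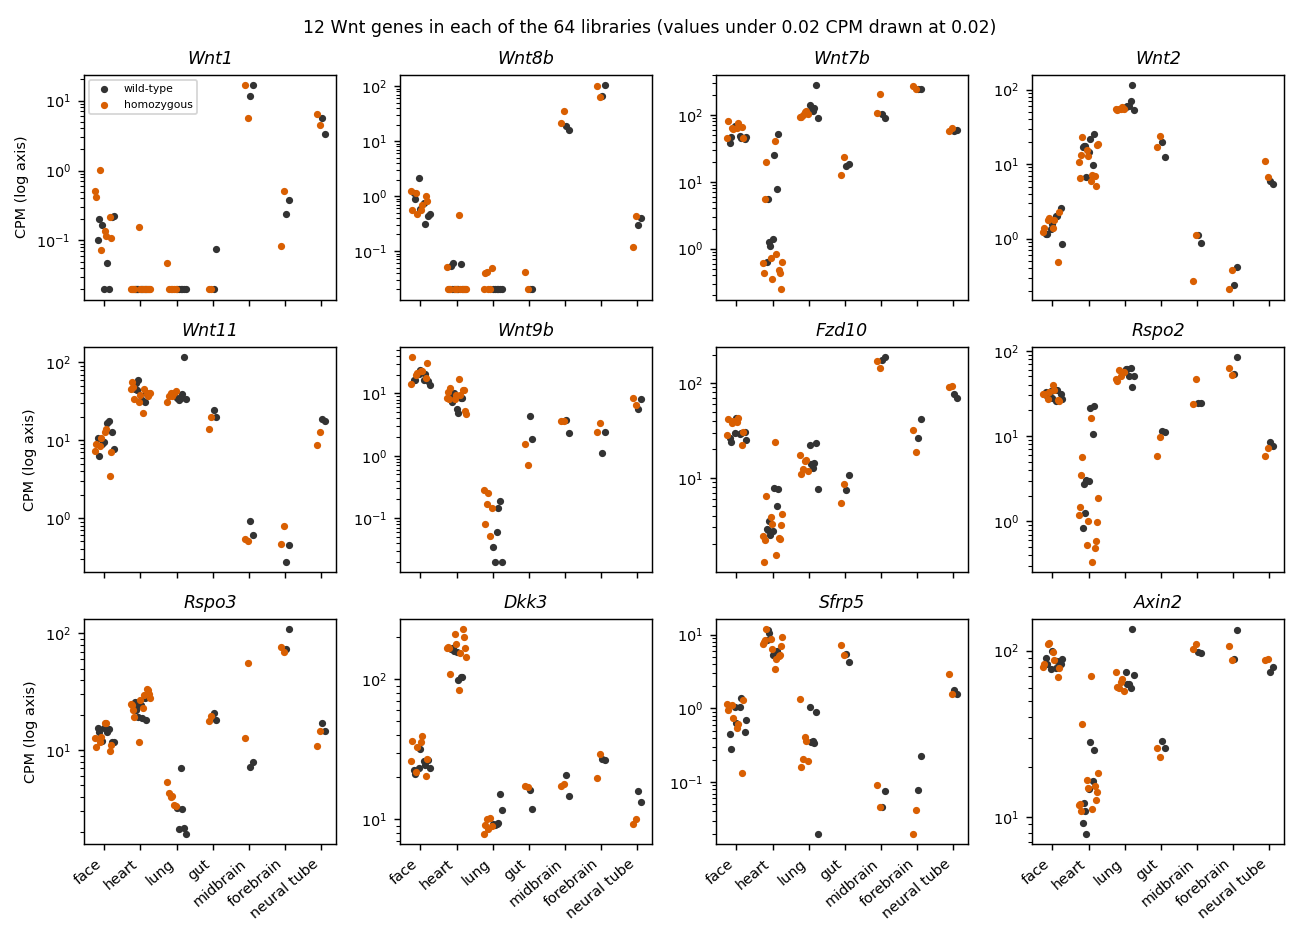
Level of selected members in every one of the 64 libraries (points; CPM on a log axis) by tissue, with homozygous (orange) and wild-type (dark grey) libraries marked and the lowest values drawn at the floor named in the title. Wnt1 is highest in the midbrain, Wnt8b in the forebrain, Wnt2 in the lung and Dkk3 in the heart, and a few hearts stand above the others for Wnt7b and Rspo2.

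Tissues of the same line were then compared, with both genotypes and the line-by-genotype group in the model, by edgeR's quasi-likelihood test with Benjamini-Hochberg adjustment over all genes tested. Calls were made where the adjusted p was below 0.05, and log2 fold changes are given with their standard error (SE). In each of the 4 contrasts the members' typical change was larger than that of all genes: the median absolute log2 fold change was 1.34 against 0.49 between face and heart, 1.75 against 0.97 between lung and heart, 1.29 against 0.54 between gut and midbrain, and 1.36 against 0.27 between forebrain and neural tube. Of the 48 genes, 14 were called in all 4 contrasts (Wnt2, Wnt4, Wnt7a, Wnt7b, Wnt9a, Fzd3, Fzd4, Fzd5, Fzd7, Fzd10, Rspo2, Sfrp1, Sfrp5 and Lef1), and Fzd6 was called in none. Such counts are to be read beside the share of all genes called, which was 71.6%, 80.4%, 66.6% and 36.2% in the order of contrasts above. The share of all genes called in all 4 contrasts is not given, so the count of 14 has no background.

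**Figure D3:**
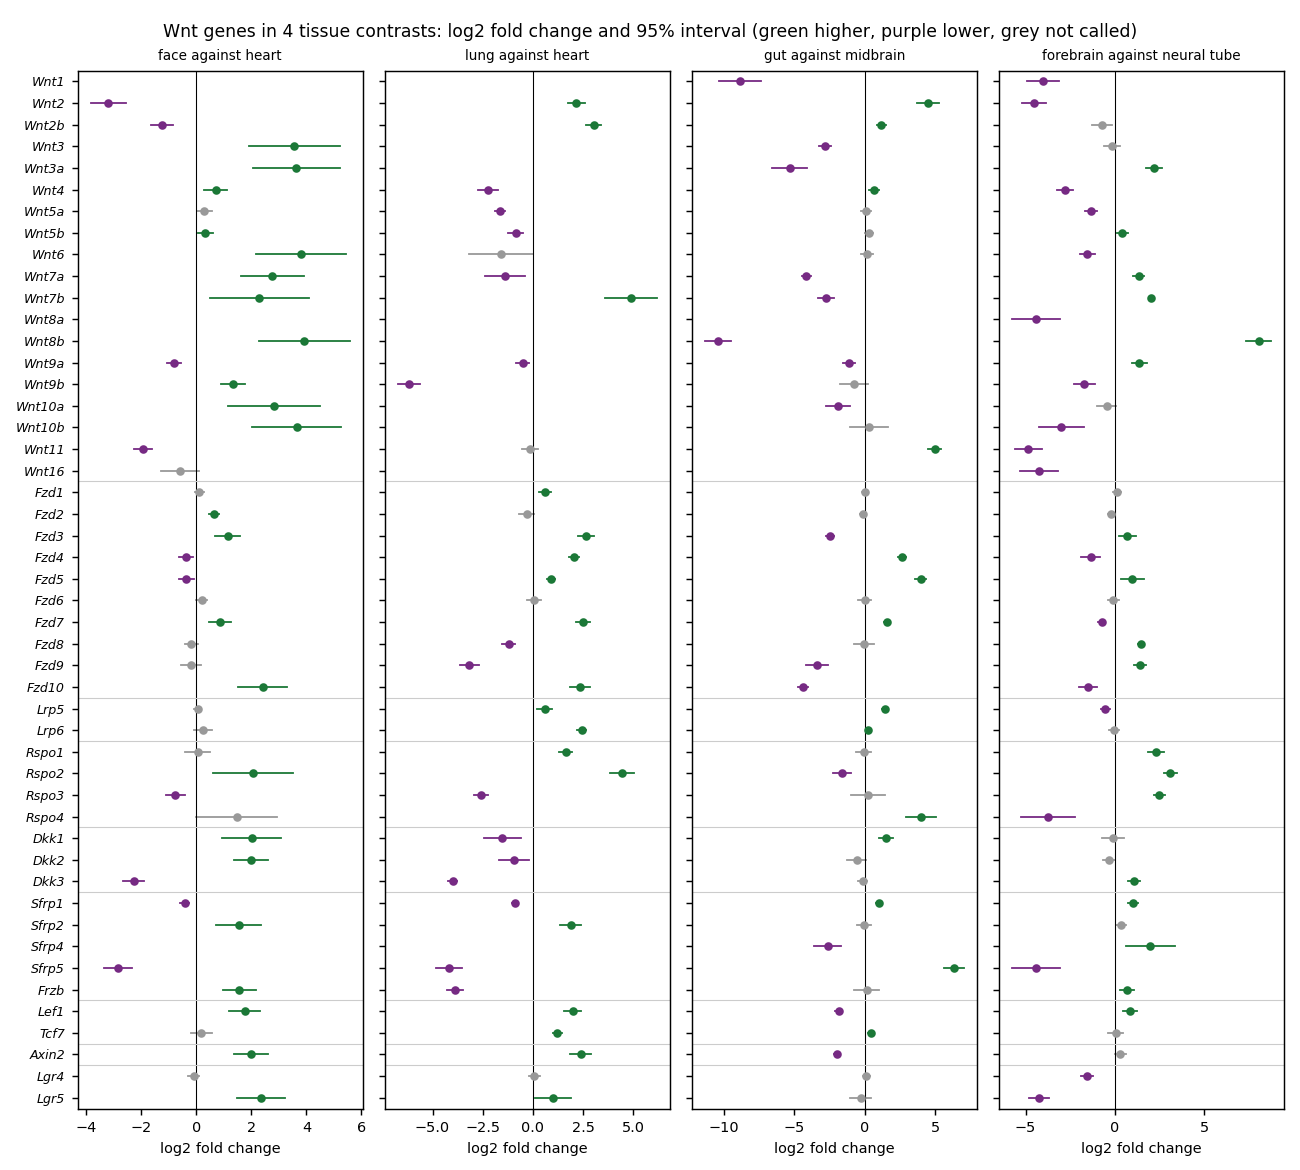
Log2 fold change of each tested member (points, by role, with the interval at 95%) in the 4 tissue contrasts within a line, green where called higher in the tissue named first, purple where called lower and grey where not called. The points farthest from 0 between gut and midbrain are Wnt8b and Wnt1, and neither co-receptor is called between face and heart.

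More ligands were higher than lower in faces against hearts of the same lines, and the secreted antagonists were split. Among the 8 faces and 8 hearts of B3 and B5, 33 of 45 tested members were called, where 71.6% of all genes were. Of them 23 were higher in the face and 10 lower, beside 37% and 34.6% of all genes, and the members' median log2 fold change was 0.66 against 0.04. Of 17 tested ligands 11 were higher and 4 lower, 4 of 10 frizzleds were higher and 2 lower, and neither co-receptor was called. Of the antagonists, Dkk1, Dkk2, Sfrp2 and Frzb were higher in the face and Dkk3, Sfrp1 and Sfrp5 lower.

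Wnt6, an epithelial ligand, lay at 19.9 to 50.6 CPM in the faces (median 26.8) and at 0.101 to 19.7 in the hearts (0.879), a log2 fold change of 3.81 (SE 0.76, adjusted p = 0.000474). The top heart, A21, nearly reached the lowest face. The antagonist Dkk2 was at 34.7 to 47.3 CPM (median 38) against 3.98 to 31.1 (8.14), a log2 fold change of 2.0 (SE 0.29, adjusted p = 3.17e-05). Axin2 was at 77.6 to 111 CPM in faces (86.7) against 11.2 to 70.4 in hearts (16.5), also 2.0 on the log2 scale (SE 0.29, adjusted p = 3e-05). So an antagonist and a feedback target of the canonical branch were both higher in the face, with no overlap between tissues. Rspo2 (log2 fold change 2.06, adjusted p = 0.0134), Frzb (1.57, adjusted p = 0.000159) and Wnt8b (3.93, adjusted p = 0.000398, with 203 counts in faces and 13 in hearts) were also higher without overlap. Lef1 rose by 1.76 (SE 0.26, adjusted p = 3.93e-05) with overlap, and Tcf7 was not called. Wnt1 was too low to be tested, with 64 counts over the faces and 3 over the hearts, a ratio of 17.2 (counting interval 5.64 to 85.8).

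Genes lower in the face were led by Wnt2, at 1.15 to 1.88 CPM (median 1.37) against 5.92 to 25.7 in hearts (13.6), a log2 fold change of -3.19 (SE 0.3, adjusted p = 5.79e-07). Sfrp5 (-2.84, adjusted p = 1.65e-07) and Dkk3 (-2.27, adjusted p = 5.75e-08) followed. Dkk3 lay at 21.2 to 36.2 CPM in faces and 83.7 to 210 in hearts. Wnt11 was at 6.3 to 10.8 CPM in faces (8.95) against 22.3 to 45.2 in hearts (32.9), a log2 fold change of -1.93 (SE 0.15, adjusted p = 8.17e-08). Wnt2b (-1.24, adjusted p = 3.56e-05) and Wnt9a (-0.79, adjusted p = 4.27e-05) were lower too. Among 50 other pathway genes, 29 were higher and 11 lower in the face. They were led by Kremen2, a dickkopf receptor (3.63), Sost (sclerostin), a co-receptor inhibitor that was lower in the face (-3.45), Sostdc1 (3.38) and Celsr3 of planar cell polarity (3.38).

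Several hearts carried markers of other tissues, and these moved with the members. The homozygous B5 heart A21 had summed facial mesenchyme markers of 850 CPM and neuronal markers of 447, beside 64.2 to 140 CPM of facial mesenchyme markers in hearts other than A21 and A58. It had the highest heart level of Wnt6 among these lines (19.7 CPM). The wild-type hearts A16 and A24 had lung and foregut mesenchyme markers of 241 and 263 CPM, where the other hearts had 73.7 to 148, and with them Wnt7b of 25.5 and 51.7 CPM and Rspo2 of 21.6 and 22.8. The part of these cells in the contrast was not tested. Leaving out A21 (chosen after seeing the data) gave 37 of 46 members called, beside 73.1% of all genes. In line B5 alone, 17 of 45 members were called, beside 46.3% of all genes.

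**Figure D4:**
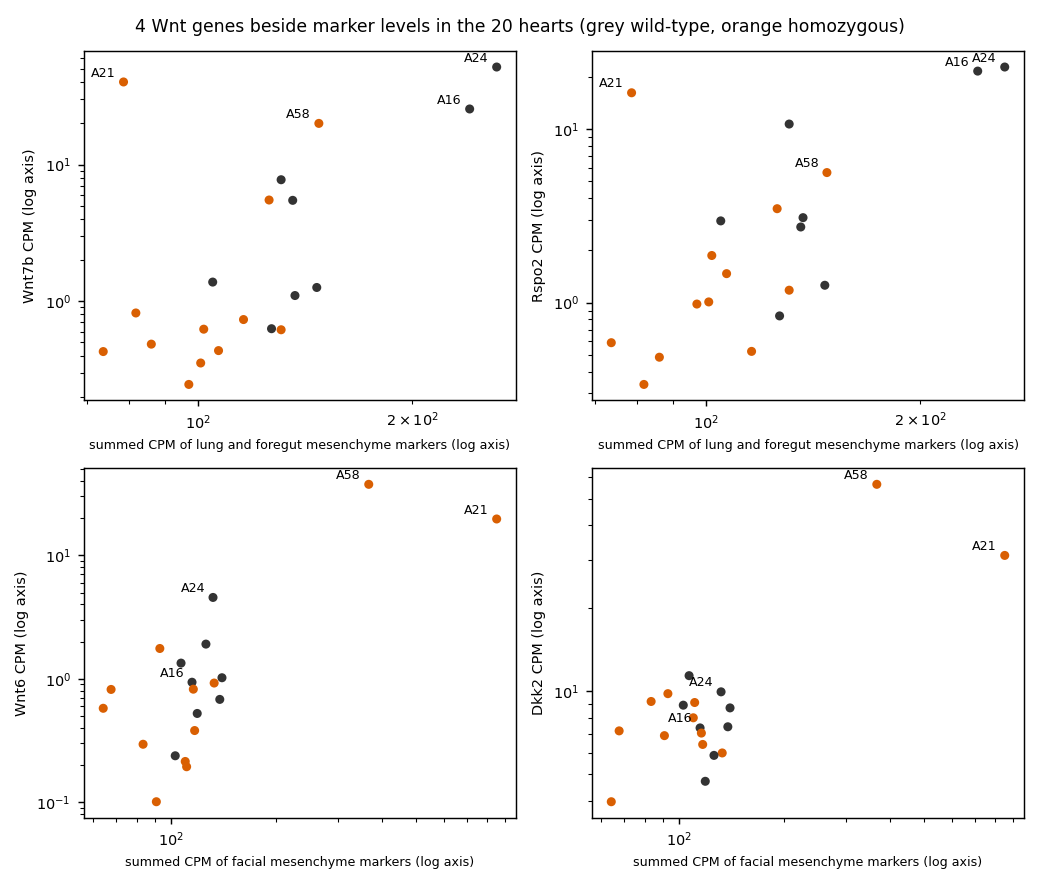
Levels of members in the 20 hearts (CPM, vertical log axes) against the summed level of marker genes of another tissue in the same library (CPM, horizontal log axes). The hearts A21 and A58 stand apart for facial mesenchyme markers (850 and 367 CPM), and A16 and A24 for lung and foregut mesenchyme markers (241 and 263 CPM).

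Lung and heart of the same line differed in most members, in both directions. Among 12 lungs and 8 hearts of B2, 33 of 38 tested members were called, where 80.4% of all genes were. They split into 18 higher and 15 lower, beside 41.7% and 38.8% of all genes, with a median log2 fold change of 0.06 for the members and for all genes. Both co-receptors, Lef1, Tcf7 and Axin2 were higher in the lung, and 6 frizzleds were higher and 2 lower. Of 11 tested ligands 3 were higher and 6 lower, of 4 tested secreted frizzled-related proteins 1 was higher and 3 lower, and all 3 dickkopf genes were lower. The mitochondrial share given above differed between these lungs and hearts, and its part was not tested.

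The hearts in this contrast are those of B2, which differed from other hearts in several of these genes. Lrp5, Lrp6, Lef1, Tcf7, Axin2, Fzd3, Fzd4, Fzd5, Fzd7 and Fzd10 were also called lower, and Fzd8 and Fzd9 higher, in wild-type hearts of B2 than in those of B3 and B5. The same held for Wnt7b, Rspo2 and Wnt2b (lower) and for Dkk3 and Sfrp5 (higher). By contrast, Wnt5a and Wnt9a, called lower in the lung, were also called lower in the B2 hearts. Fzd4 was at 15.7 to 26 CPM in wild-type lungs, 4.04 to 5.5 in wild-type B2 hearts and 16.8 to 29.7 in wild-type hearts of B3 and B5. Lrp6 was at 78 to 189, 24.6 to 27.3 and 60 to 98.1 CPM in the same order, and Axin2 at 59.7 to 135, 7.91 to 12.1 and 14.6 to 28.1. The lungs thus overlapped the B3 and B5 hearts for Fzd4 and Lrp6 and lay above them for Axin2. Wild-type hearts of B3 and B5 were at 9.02 to 16.9 CPM for Wnt2b, 2.96 to 22.8 for Rspo2 and 1.38 to 51.7 for Wnt7b. For these genes too, the wild-type lungs lay above them. Lungs against hearts of another line were not tested.

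Wnt7b, the ligand of the lung epithelium, was at 90.6 to 283 CPM in lungs (median 111) and 0.435 to 20 in hearts (1.18), a log2 fold change of 4.88 (SE 0.63, adjusted p = 3.42e-07). Rspo2 was at 37.8 to 62.6 CPM (53.2) against 0.839 to 5.62 (2.1), a log2 fold change of 4.44 (SE 0.28, adjusted p = 5.06e-12). Wnt2b was at 18.9 to 28 CPM (24.5) against 1.26 to 4.95 (2.98), a log2 fold change of 3.03 (SE 0.18, adjusted p = 1.66e-12). All lungs lay above all hearts for these genes. Wnt2, which acts with Wnt2b in the foregut, was higher by 2.16 (SE 0.21, adjusted p = 6.25e-09). The receptors Fzd3 (2.64, adjusted p = 1.83e-11) and Fzd7 (2.49, adjusted p = 3.08e-11) and the co-receptor Lrp6 (2.42, SE 0.11, adjusted p = 1.42e-14) were higher without overlap. Axin2 lay at 57.0 to 135 CPM in lungs (63.9) and 7.91 to 36.1 in hearts (11.3), a log2 fold change of 2.38 (SE 0.25, adjusted p = 2.17e-08), and Lef1 was higher by 1.98 (SE 0.21, adjusted p = 1.32e-08).

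Wnt9b was nearly missing from the lung, at 0.0 to 0.285 CPM (0.112) against 7.23 to 12.2 in hearts (8.76), a log2 fold change of -6.17 (SE 0.27, adjusted p = 6.26e-15). Dkk3 was at 7.92 to 15.3 CPM (9.26) against 109 to 169 (166), a log2 fold change of -4.0 (SE 0.1, adjusted p = 1.55e-18). Sfrp5 (-4.17, adjusted p = 5.92e-11) and Frzb (-3.86, adjusted p = 8.07e-14) were lower in all lungs, as were Fzd9 (-3.17, adjusted p = 3.42e-11) and Rspo3 (-2.59, adjusted p = 1.69e-11). Rspo2 and Rspo3 thus moved in opposite ways between these tissues. Of 49 tested other pathway genes 30 were higher in the lung and 10 lower. The E3 ligase Rnf43, itself a target and brake of the pathway (3.14), Ror1, a Wnt5a receptor (3.11), and Sp5, a beta-catenin target (2.77), were higher and Sost was lower (-2.45). The heart A58 carried liver markers of 1270 CPM, and its Wnt7b of 20 CPM was the highest of the B2 hearts.

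Between gut and midbrain the ligands of the dorsal brain fell almost to 0, and Axin2 and Lef1 were lower with them. Among 4 guts and 4 midbrains of B4, 29 of 46 tested members were called, where 66.6% of all genes were. They split into 14 higher in the gut and 15 lower, beside 35.9% and 30.7% of all genes. Of 17 ligands tested 4 were higher in the gut and 8 lower.

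Wnt8b was counted 1 time over the 4 guts and 2059 times over the 4 midbrains, a ratio of 2050 (counting interval 368 to 81000), and lay at 21.1, 35.5, 18.7 and 15.7 CPM in the midbrains (adjusted p = 2.62e-08). Wnt1 was counted 2 times against 1186, a ratio of 591 (163 to 4880), with 16.7, 5.55, 11.6 and 16.8 CPM in the midbrains (adjusted p = 1.67e-06). The midbrain with 5.55 CPM, the homozygous A39, was also the one with 35.5 CPM of Wnt8b. It had forebrain markers of 396 CPM (107 to 130 in the other midbrains) and midbrain markers of 187 CPM (279 to 387). Fzd10, a frizzled of the dorsal neural tube, was at 5.39, 8.55, 7.42 and 10.8 CPM in guts and 172, 144, 175 and 189 in midbrains, a log2 fold change of -4.39 (SE 0.16, adjusted p = 1.63e-08). Wnt7a (-4.15, adjusted p = 9.55e-09), Wnt3a (-5.33, adjusted p = 1.83e-05) and Fzd9 (-3.39, adjusted p = 1.6e-05) were lower too, and so were Axin2 (-1.96, SE 0.09, adjusted p = 6.22e-08) and Lef1 (-1.87, SE 0.11, adjusted p = 2.73e-07).

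Higher in the gut was Sfrp5, a foregut inhibitor, at 7.33, 5.29, 5.38 and 4.21 CPM against 0.0459 to 0.0903 in midbrains, a log2 fold change of 6.31 (SE 0.33, adjusted p = 1.44e-07). Wnt11 was at 14, 20, 24.3 and 19.9 CPM against 0.505 to 0.926, a log2 fold change of 4.95 (SE 0.2, adjusted p = 3.03e-08). Wnt2 (4.44, adjusted p = 2.38e-06), Rspo4 (3.98, adjusted p = 5.58e-05), Fzd5 (3.94, adjusted p = 7.99e-08) and Fzd4 (2.63, adjusted p = 4.85e-08) were higher without overlap. Lrp5 rose by 1.42 (SE 0.1, adjusted p = 1.36e-06) and Dkk1 by 1.5 (SE 0.23, adjusted p = 0.000256). Guts carried liver markers of 4790 to 7750 CPM, and what liver contributed was not tested. Of 49 other pathway genes, 15 were higher in the gut and 23 lower, the largest being Draxin, a secreted axon guidance protein (-5.46), Apc2 (-5.25), Celsr3 (-5.2) and Celsr2 (-4.81), which are expressed in neurons.

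Forebrain and neural tube differed in ligands, R-spondins and their receptors. Among 4 forebrains and 4 neural tubes of B8, 36 of 48 members were called, where 36.2% of all genes were. They were 18 higher in the forebrain and 18 lower, beside 16.7% and 19.5% of all genes. Of the 19 ligands 6 were higher and 10 lower. Rspo1, Rspo2 and Rspo3 were higher in the forebrain, whereas their receptors Lgr4 and Lgr5 were lower.

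Wnt8b was at 101, 62.4, 66.0 and 106 CPM in forebrains and 0.12 to 0.436 in neural tubes, a log2 fold change of 8.05 (SE 0.32, adjusted p = 7.45e-08). Rspo2 was at 63.4, 51.6, 52.9 and 84.7 CPM in forebrains against 5.86, 7.26, 8.48 and 7.64 (log2 fold change 3.09, SE 0.16, adjusted p = 5.12e-07). Rspo3 was at 77.2, 69.2, 74.0 and 109 CPM against 10.8, 14.6, 17.2 and 14.7 (2.5, SE 0.15, adjusted p = 1.01e-06). No forebrain overlapped a neural tube in these genes, and the same held for Rspo1 (2.3, SE 0.2, adjusted p = 1.57e-05), Wnt3a (2.2, SE 0.19, adjusted p = 1.61e-05) and Wnt7b (2.05, SE 0.07, adjusted p = 3.63e-08). Lgr5 moved the other way, at 0.457, 0.253, 0.395 and 0.302 CPM in forebrains against 5.05, 6.82, 7.46 and 7.82 (-4.27, SE 0.25, adjusted p = 1.01e-06), and Lgr4 was lower by 1.55 on the log2 scale (adjusted p = 2.77e-05).

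Lower in the forebrain were Wnt11 (-4.85, adjusted p = 2.93e-06), Wnt2 (-4.51, adjusted p = 2.68e-06), Sfrp5 (-4.41, adjusted p = 0.000275), Wnt8a (-4.4, adjusted p = 0.000319) and Wnt16 (-4.24, adjusted p = 7.95e-05), all without overlap. Wnt11 lay at 8.66, 12.9, 18.6 and 17.9 CPM in neural tubes and at most 0.801 in forebrains. The neural tubes carried the skeletal muscle markers given above and summed Hox markers of 343 to 388 CPM, whereas 3 of the 5 Hox markers were at 0 in every forebrain. The part of muscle or other trunk tissue in the higher neural tube levels was not tested. Lef1 was higher in the forebrain (0.86, adjusted p = 0.00333), and Axin2 was not called (0.3, SE 0.14, adjusted p = 0.109). Tcf7 was not called either. Of 49 tested other pathway genes 9 were higher and 14 lower in the forebrain, led by Kremen2 (-3.17), Lgr6 (-2.77), Sp5 (2.53) and Notum, a Wnt deacylase (-2.5).

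The comparison that the study made, homozygous against wild-type within a line and tissue, called no member. Over the 12 matched comparisons, 0 of 506 member tests passed at an adjusted p under 0.05 by edgeR's quasi-likelihood test, beside 0.0116% of 180439 tests over all genes, and DESeq2 also called 0. Without the filter on low counts, 25 member tests passed, beside 2635 over all genes. In the B3 face 11 of 48 members passed (1.96% of all genes), in the B7 face 5 (2.07%) and in the B4 gut 4 (2.29%). The B6 face had 3 (2.93%) and the B8 neural tube 2 (3.13%). With the filter and at an unadjusted p under 0.05, 53 passed by DESeq2, for which no share over all genes is given. By edgeR 71 of 506 (14%) passed, where 6.41% of all edgeR tests did. Without 5 libraries that stood apart (A21, A39, A58 and the lungs E5420-07 and E5420-09, left out after seeing the data) this count was 73 of 508 (14.4%), beside 7.33% of all genes. The unadjusted counts were highest in the face of B3, with 13 of 46 members (28.3%) where 9.49% of all genes passed, and in the face of B7, with 12 of 45 (26.7%) where 7.55% did.

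Members near a deletion were read individually. Lef1 and Dkk2 lie on chromosome 3, 3.11 and 4.08 Mb from the B7 deletion, and Dkk1 lies on chromosome 19, 4.91 Mb from the B8 deletion, by the coordinates of the study's deletions. In B7 faces, Lef1 was at 50.2 and 66.0 CPM in homozygous and 79.4 and 83.3 in wild-type libraries, a log2 fold change of -0.49 (SE 0.13, unadjusted p = 0.00468, adjusted p = 0.439 by edgeR). Dkk2 was at 27.2 and 33 CPM against 38.5 and 42, a log2 fold change of -0.43 (SE 0.12, unadjusted p = 0.00769, adjusted p = 0.495). Both pairs were apart without overlap, yet neither gene was called. Facial mesenchyme markers were at 1020 and 1170 CPM in the same homozygous faces and 1270 and 1290 in the wild-type ones, and their part in these differences was not tested. Without the filter on low counts both genes passed (adjusted p = 0.00033 and 0.0327), and both passed without the homozygous face A3 (Lef1 -0.7, adjusted p = 0.000159, and Dkk2 -0.56, adjusted p = 0.0139). In the B7 hearts, set against wild-type hearts of other lines, Lef1 differed by -0.31 (SE 0.41) and Dkk2 by 0.2 (SE 0.28), and neither was called. Dkk1 was at 2.91 and 1.43 CPM in homozygous B8 forebrains and 2.05 and 1.89 in wild-type ones (0.13, SE 0.42, adjusted p = 0.97), and at 3.25 and 2.13 against 1.7 and 1.84 in neural tubes (0.6, SE 0.36, adjusted p = 0.6). The genotype labels of the B8 forebrain are used as given and may be exchanged, so the direction of every genotype difference in that tissue is uncertain. If so, the wild-type forebrain levels given above would be those of homozygous libraries. With all libraries of each tissue, both genotypes included, the median tau of the members was also 0.36.

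In the B2 lung, the tissue with most replicates, the smallest p-values were those of the nuclear factors. Lef1 was at 45.1 to 57.9 CPM in 6 homozygous lungs (median 54.3) and 60.1 to 135 in 6 wild-type lungs (72.7), without overlap. The log2 fold change was -0.58 (SE 0.16, unadjusted p = 0.00287), and the adjusted p of 0.89 did not pass. Tcf7 was at 14.2 to 19.6 CPM (14.9) against 18.6 to 24.1 (20.8), with a log2 fold change of -0.36 (SE 0.11, adjusted p = 0.89). The highest wild-type value of Lef1 came from E5420-07, and without E5420-07 and E5420-09 the difference was -0.34 (unadjusted p = 0.000575, adjusted p = 0.413). With the first part of the lungs' codes (E5403, E5406 or E5420) as a block it was -0.43 (unadjusted p = 0.0195, adjusted p = 1.0). Liver markers were at 44.4 to 459 CPM in homozygous and 15.1 to 74.7 in wild-type lungs, and lung and foregut mesenchyme markers at 417 to 476 and 459 to 968. Their part in the difference was not tested.

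**Figure D5:**
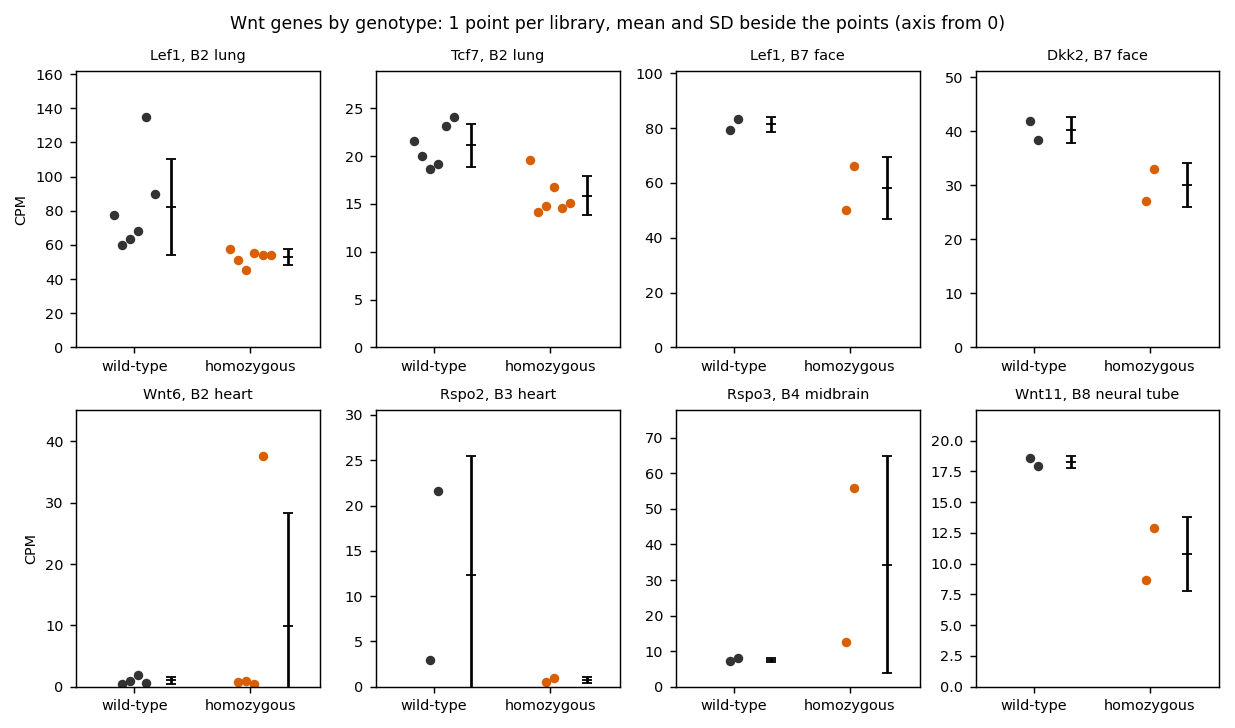
Level (CPM, linear axes from 0) of members in homozygous and wild-type libraries of single lines and tissues, each point a library, with mean and SD beside the points (bars that would pass below 0 end at the axis). Lef1 in the B2 lung and in the B7 face does not overlap between genotypes, and a single library sets the mean for Wnt6 in the B2 heart.

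Other members with the smallest unadjusted p often rested on 1 library. Wnt6 in the B2 heart was at 0.824, 0.924, 0.381 and 37.6 CPM in homozygous hearts and 0.524 to 1.91 in wild-type ones, a log2 fold change of 3.3 (SE 1.26, adjusted p = 0.867). The value of 37.6 came from A58, which also had facial mesenchyme markers of 367, surface epithelium markers of 327 and liver markers of 1270 CPM. Without it the log2 fold change was -0.52. Rspo2 in the B3 heart was at 0.524 and 1.01 CPM against 2.96 and 21.6, the last in A16 (-3.99, SE 1.03, adjusted p = 0.524), -1.94 without A16 and, past the threshold, -4.8 without A14 (adjusted p = 0.0212). Rspo3 in the B4 midbrain was at 12.7 and 55.9 CPM against 7.18 and 7.98, the 55.9 in A39 (2.19, SE 0.66, adjusted p = 0.668), 0.75 without it and 2.9 without A37 (adjusted p = 0.00075).

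The remaining named differences were smaller in size or spread, and none passed. Sfrp2 was at 152 and 171 CPM against 127 and 137 in the B3 face (0.29, adjusted p = 0.503), and Dkk3 at 26 and 36.2 against 21.2 and 22.7 (0.5, adjusted p = 0.503). Dkk3 differed the same way in the B6 face, at 35.9 and 39.3 CPM against 24.4 and 26 (0.56, adjusted p = 0.257), with Wnt7b at 63.3 and 74.8 against 46.0 and 48.3 (0.54, adjusted p = 0.289). In the same B6 faces, facial mesenchyme markers were at 1440 to 1490 CPM in homozygous and 1230 to 1240 in wild-type libraries, and mitochondrial counts at 0.48% and 0.66% against 1.06% and 1.17%. In the B4 gut Wnt4 was at 13.5 and 13.7 CPM against 18.6 and 27.5 (-0.76, adjusted p = 0.427) and Frzb at 3.56 and 3.7 against 5.26 and 12.5 (-1.29, adjusted p = 0.512). Skeletal muscle markers were at 15.3 to 32.9 CPM in the homozygous guts against 52.1 to 164, neuronal markers at 30 to 38.1 against 38.8 to 72.4 and liver markers at 5270 to 7750 against 4790 to 5020. The part of these markers in the face and gut differences was not tested. The groups did not overlap for the members named, but each holds 2 libraries. In the B8 neural tube Wnt11 (-0.77, adjusted p = 0.419) and Wnt16 (1.34, adjusted p = 0.419), and in the B8 forebrain Wnt5b (0.52) and Dkk2 (-0.55, both adjusted p = 0.826), were the leading members. The others were Fzd8 in the B3 heart (0.53, adjusted p = 0.524), Fzd9 in the B4 midbrain (0.63, adjusted p = 0.668), Sfrp2 in the B2 heart (0.8, adjusted p = 0.867), Axin2 in the B5 face (0.34, adjusted p = 0.999) and Wnt2 in the B5 heart (-1.45, adjusted p = 1.0). Without A39 the Fzd9 difference was 0.37, and without A58 the Sfrp2 difference was 0.35. A genotype effect that differs between the 2 tissues of a line was tested by an interaction term in B2, B3, B4, B5 and B8, and none of 224 member tests was called (smallest adjusted p = 0.526).

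Lines also differed without any deletion in play, which bears on hearts above all. Between the 4 wild-type hearts of B2 and the 4 of B3 and B5, 26 of 38 tested members were called, 9 higher and 17 lower in B2, where 62.5% of all genes were called (31.9% higher, 30.6% lower). Lrp6 was at 26.1, 27.3, 25.9 and 24.6 CPM in B2 and 83.4, 98.1, 60.0 and 70.6 in the others (-1.51, SE 0.14, adjusted p = 8.71e-06). Fzd4 was at 4.04 to 5.5 CPM against 16.8 to 29.7 (-2.23, SE 0.21, adjusted p = 1.19e-05). Fzd5 (-1.15, adjusted p = 0.000179) and Fzd7 (-1.16, adjusted p = 0.000313) were lower in B2 as well, whereas Fzd9 (1.37, adjusted p = 0.000142) and Sfrp1 (0.55, adjusted p = 0.000183) were higher. Axin2 (-1.01, adjusted p = 0.00222), Lef1 (-0.84, adjusted p = 0.00731), Lrp5 (-0.38, adjusted p = 0.00732) and Tcf7 (-0.8, adjusted p = 0.0221) were lower in B2 too, Tcf7 with overlap. Markers moved with these groups: cardiomyocyte markers summed to 21900 to 25400 CPM in B2 and to between 9580 and 14900 in the others, erythroid markers to 21000 to 37000 against 19900 to 74800, and lung and foregut mesenchyme markers to 127 to 147 against 105 to 263, the highest in A16 and A24. Their part in the differences was not tested, and line, litter and handling cannot be told apart here. In wild-type faces, B6 and B7 against B3 and B5, 0 of 45 members were called by edgeR or by DESeq2. Of all genes, 0% were called by edgeR and 0.199% by DESeq2. At an unadjusted p under 0.05 by edgeR, 5 members passed, beside 782 of 15088 genes.

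The homozygous hearts of B6 and B7 could only be set against these wild-type hearts of other lines, so genotype and line cannot be told apart. Neither called a member of 39 tested by edgeR, where 0% of all genes were called. At an unadjusted p under 0.05, 10 members of B6 passed, beside 2613 of 15512 genes, and 7 of B7, beside 1492 of 15593. DESeq2 called 3 in B6 (Wnt2, Wnt7b and Rspo2) and 0 in B7, beside 4.35% and 0.596% of all genes. The wild-type hearts include A16 and A24, which carried the lung and foregut mesenchyme markers given above. They were the highest of these hearts for Wnt7b (25.5 and 51.7 CPM) and Rspo2 (21.6 and 22.8), and their part in these calls was not tested. Wnt2 was at 6.88 and 5.02 CPM in B6 against 6.76 to 25.7 (-1.49, SE 0.44, adjusted p = 0.199), and Wnt16 at 1.89 and 1.6 against 0.262 to 1.14 (1.52, SE 0.48, adjusted p = 0.215). In B7, Wnt4 was at 8.01 and 7.88 CPM against 10.3 to 30 (-1.3, SE 0.39, adjusted p = 0.506) and Sfrp2 at 4.47 and 17.5 against 22.1 to 123 (-2.19, SE 0.76, adjusted p = 0.506). The nearest pathway gene to any deletion outside the 48, the inhibitor Sostdc1 at 1.12 Mb from B6, was at 23.6 and 21.3 CPM against 26.3 and 25.8 in B6 faces (-0.23, SE 0.13, adjusted p = 0.68). In B6 hearts it was at 0.0485 and 0.0534 CPM, and in the 8 wild-type hearts at 0.0524 to 3.9. The paper reports lower Sostdc1 in homozygous B6 hearts than in its wild-type controls. Here the B6 levels were near 0 and had no wild-type B6 hearts beside them, so they cannot decide on that change.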

How the data were processed

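RNA-seq libraries were prepared by a company and sequenced as paired reads; the authors mapped them to mm10 with STAR and quantified GENCODE M4 genes with RSEM, with DESeq for their tests. The strand setting is not given in the sources used here, so antisense overlaps cannot be separated. The deposited tables hold expected counts, estimated per gene and not normalized, and TPM, which the authors' RSEM run scaled by transcript length and library. Deposited FPKM was not used. Hi-C samples were not analysed here.

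Expected counts were rounded. Groups came from the labels (line, tissue, genotype). Genes were filtered with filterByExpr (minimum count 10, total 15), normalised with TMM and modelled in edgeR 4.0.16 (glmQLFit, glmQLFTest) in R 4.3.3, adjusting p-values by Benjamini and Hochberg over all genes tested in each of 20 comparisons. Intervals are at 95%. CPM used TMM over all 64 libraries, and levels between genes used TPM. Counting intervals cover counting error only. Names came from GENCODE M21 (42462 of 43346 genes). No replicate pair of the 64 compared agreed within sampling noise (lowest chi-square per gene 6.69). Scripts were tested on simulated data. Alternatives were DESeq2 1.42.0, RLE size factors, no low-count filter, subsets of genotypes, lines or wild-type hearts, sex or the shared first part of the library codes in the lung model, and leaving out each library of groups of 2 to 5; leaving out 5 libraries that stand apart was added after seeing the data.

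Members, pathway list and markers were chosen with earlier results of these data known. Named genes were, per tissue contrast, up to 6 called members in each direction with the largest change and no overlap, up to 2 members with the smallest unadjusted p under 0.05 per genotype comparison, up to 6 called members in the contrast of wild-type hearts, members within 5 Mb of a deletion, and 4 pathway genes per tissue contrast. Other members are named as examples chosen after their values were seen. The part of the rule on protein identity was not applied, as no protein sequences were used here. Deletion coordinates (mm10) are the study's, and promoters are RefSeq's on GRCm38.p6.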

Additional observations from a re-analysis of the deposited data

Results flagged for a closer look

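In the 4 B2 groups of 4 to 6 libraries, the highest or lowest library was compared with the others by Dixon's ratio for the members named there, in 64 checks, and 11 stood out. Chance alone flags about 1 in 20 groups. Values are CPM.

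In the homozygous B2 heart A58, Wnt6 was 37.6 (0.381 to 0.924 in the other 3) and Dkk3 was 109 (166 to 169). A58 also carried the liver, surface epithelium and facial mesenchyme markers given above, whose part was not tested. In the wild-type B2 heart A60, Wnt2 was 6.76 (16.8 to 17.5 in the others) and Wnt4 was 30 (21.2 to 22), and in the wild-type heart A56, Wnt7b was 5.47 (0.629 to 1.26).

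In the wild-type lung E5420-07, Wnt7b was 283 (90.6 to 139 in the other 5) and Fzd7 was 349 (136 to 209), Fzd9 was 3.61 (0.787 to 1.17), and Fzd3 was 12.9 (42 to 46.7). This library had 0.36% mitochondrial counts (11.3% to 14.05% in 10 other lungs), and the part of its RNA in these values was not tested. Rspo3 was 7.11 in the wild-type lung E5406-03 (1.93 to 3.18), and Sfrp5 was 1.33 in the homozygous lung E5403-10 (0.158 to 0.408).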

How the results depend on the processing

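The count of members called between tissues moved past 1.5 times in 1 case, face against heart in line B5 only, where 17 were called (33 in the full contrast), beside 46.3% and 71.6% of all genes. Leaving out each library in turn gave 32 to 37 members called between face and heart, 31 to 34 between lung and heart (hearts only), 28 to 32 between gut and midbrain, 32 to 37 between forebrain and neural tube, and 20 to 26 between wild-type hearts. DESeq2, RLE size factors, no low-count filter and single genotypes moved none of these 4 tissue counts by over 1.5 times. Named members weakened in 3 cases of face against heart: Wnt8b and Wnt6 with homozygous libraries only (adjusted p = 0.0562 and 0.0696) or in B5 only (0.0536 and 0.0579), and Rspo2 with wild-type libraries only (0.0611) or in B5 only (0.185).

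In the matched genotype comparisons, no filter on low counts gave 25 member tests called, with 2635 over all genes and the shares by comparison given above. Leaving out each library in turn gave 0 to 12. In the comparison concerned, 12 members were called without A37 (3.62% of all genes), 7 without A3 (4.07%), 7 without A35 (6.48%), 6 without A22 (5.74%), 5 without A20 (7.42%), 3 each without A14 (1.56%), A44 (3.38%) and A1 (1.66%), 2 each without A11 (0.128%) and A29 (4.92%), and 1 without A5 (2.54%). Single named differences that passed then, besides those given above, were Wnt4 (-1.02) and Frzb (-1.79) in the B4 gut without A44, Fzd9 (0.86) in the B4 midbrain without A37, Axin2 (0.54) in the B5 face without A20, Wnt7b (0.65) in the B6 face without A5, and Wnt11 (-1.09) and Wnt16 (1.85) in the B8 neural tube without A35. Such fits leave a group with 1 library, whose spread is assumed to be that of the other group, and the cause of the changes was not tested. The unadjusted count ranged from 61 to 86. Against other wild-type hearts, B6 had 23 members called with B2 hearts only (58% of all genes), 13 with B5 only (14.7%), 3 by DESeq2 (4.35%) and 0 with B3 only (0 genes), and B7 had 20 (57.5%), 5 (5.44%), 0 (0.596%) and 0 (1 gene). Leaving out 1 heart gave 0 to 0 in both, as it did for wild-type faces. Directions reversed for Wnt6 in the B2 heart without A58 (-0.52, over leave-outs from -0.52 to 3.76), Dkk1 in the B8 forebrain without A29 (-0.44 to 0.56), and in B7 hearts for Dkk2 with B5 wild-type hearts only (-0.21) and Lef1 with B2 only (0.24). Outside the B2 lung, no paired analysis was possible because the groups share no replicate number. The B2 lungs of both genotypes share the first part of their codes. With that part as a block in the lung fit alone, 0 member tests were called over the 12 matched comparisons. At an unadjusted p under 0.05 by edgeR, 70 passed over the 12, where 71 did without the block. With sex in the lung fit these totals were 0 and 72. No share over all genes is given for these totals. Depth limits the members under 10 counts, most of all in the lung E5420-09.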
